A study of Mus musculus with 7 samples.

Results

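The genes described are those encoding the chains of collagens and laminins. They were taken by symbol, as every collagen alpha chain and every laminin alpha, beta or gamma chain in the table. The table of 23337 genes held 54 of them, and 49 had at least 10 counts in at least 2 libraries. Those 49 also passed the filter on low counts that left 14691 genes for testing. They comprised 10 of 11 fibrillar collagen chains, 19 of 19 basement membrane chains (type IV collagen, the multiplexins and the laminins) and 20 of 24 other collagen chains. The 5 genes that did not pass were Col5a3, Col6a4, Col10a1, Col19a1 and Col28a1. At the edge of the rule, Col6a5 had 6 and 12 counts in the mutant libraries and 10, 10, 8, 8 and 1 in the control libraries, and was kept. Col19a1 had 5 and 2 counts in the mutant libraries and 1, 5, 0, 10 and 2 in the control libraries, and was not.

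The libraries were made from microdissected left ventricles of embryos at embryonic day 12.5. The 2 mutant embryos carried a pair of loxP-flanked Tbx5 alleles (Tbx5 flox/flox) and the 5 control embryos unmodified Tbx5 (Tbx5+/+). Embryos of both groups carried the tamoxifen-inducible Cre recombinase CreERT2 at the Rosa26 locus, which is active in most cell types, and the mothers of both were given tamoxifen 1 day before collection. The Cre is thus not restricted to cardiac muscle, recombination itself was not measured, and the libraries hold the RNA of all ventricular cell types together. The design asks which left ventricular transcripts depend on Tbx5, a T-box factor that regulates genes of the embryonic heart. Library totals were 20268208 and 22680280 counts in the mutant libraries and 20385656 to 24440806 in the control libraries. Levels are given in CPM, read counts scaled for library size, and per kilobase of exon where genes are compared with each other.

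Tbx5 itself was not lower in the mutant libraries. It stood at 93.9 and 114 CPM there, against 66.4, 80.5, 98.3, 64.2 and 74.9 CPM in control replicates 1 to 5, with a log2 fold change of 0.43 (SE 0.15, adjusted p = 0.181 by edgeR's quasi-likelihood test). Reads over all its exons, with any outside the floxed part, are summed in this value, which therefore does not check the deletion, so "mutant" below means the libraries labelled mutant, and every direction rests on the labels. Xist, which coats the inactive X chromosome, stood at 0.689 and 1.09 CPM in control replicates 1 and 3 and at 311 to 509 CPM in the other libraries, both mutant libraries included. The labels give no litter, sex or batch, so p-values measure only the spread between these samples.

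Collagens are secreted trimers of alpha chains wound into a triple helix. Fibrillar collagens, above all types I, III and V, form the cables of interstitial matrix and in the embryonic heart are made mainly by mesenchymal cells of the endocardial cushions, the subepicardium and their fibroblast descendants. Fibril-associated collagens with interrupted triple helices (FACITs) sit on fibril surfaces, and type VI collagen forms beaded filaments next to cells. Basement membranes are thin sheets under endothelium and epithelium and around muscle cells. They are built from a laminin polymer, each laminin joining an alpha, a beta and a gamma chain, and a network of type IV collagen.

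The summed level of the fibrillar chains was 1712 and 1808 CPM in the mutant libraries, against 2599 to 4260 CPM (median 3425) in the control libraries. The other collagens summed to 347 and 408 CPM in the mutant libraries, against 453 to 636 CPM (median 518) in the control libraries. Both mutant libraries thus lay below every control for the sums of these classes. The basement membrane chains summed to 2153 and 3539 CPM in the mutant libraries, against 2206 to 3054 CPM (median 2532) in the control libraries, so mutant replicate 1 lay just under and mutant replicate 2 above the control range. In these bulk samples, fewer cells of a type and less RNA per cell cannot be told apart. The sums are descriptions and were not tested.

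**Figure D1:**
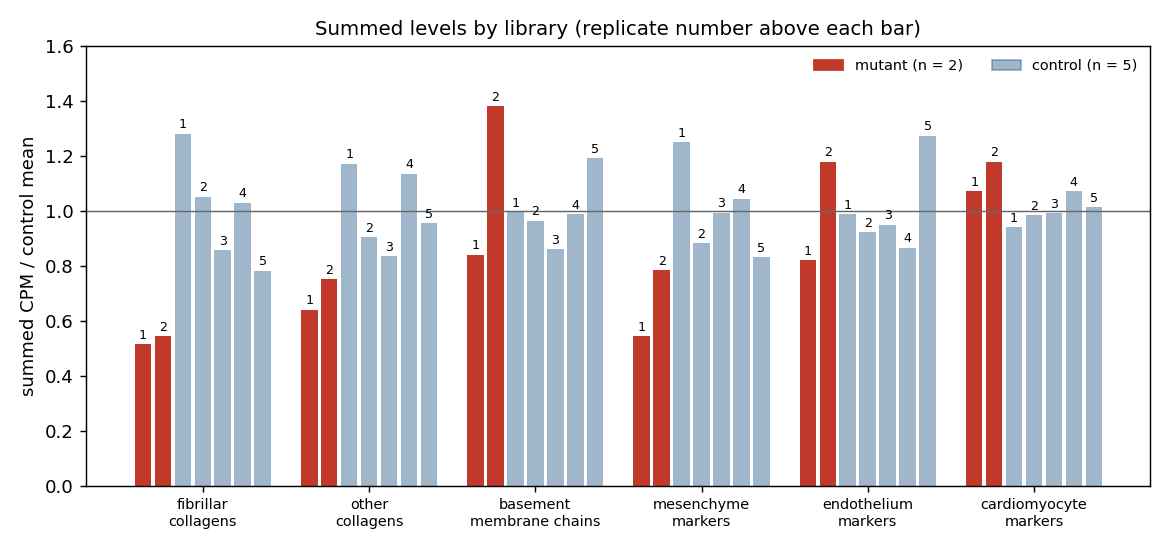
Summed CPM of each class of chain genes and of 3 lists of cell type markers, by library, divided by the mean of the 5 control libraries (line at 1). Red bars are the 2 mutant libraries and blue bars the 5 control libraries, with the replicate number above each bar; both mutant libraries lie below every control for the fibrillar collagens, the other collagens and the mesenchyme markers.

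By edgeR's quasi-likelihood test with Benjamini-Hochberg adjustment over all 14691 genes, 4 of the 49 chain genes fell at an adjusted p under 0.05, or 8.16%, against 0.899% of all genes tested. They were Col1a1, Col3a1, Col9a1 and Col16a1. The same test called 0 of the 49 higher, where it called 0.463% of all genes; 3 of the 49 were higher at an unadjusted p under 0.05, against 8.09% of all genes, and DESeq2 called 1 higher. At an unadjusted p under 0.05, 14 of 49 were lower, against 9.52% of all genes. Both mutant libraries lay below every control for 13 of the 49, against 10.4% of all genes. Both lay above every control for 2, Col20a1 among them, against 9.73% of all genes; 20.2% of all genes lay outside the control range on either side. The log2 fold change was below 0 for 33 of the 49, against 51.4% of all genes, and its median was -0.17, against -0.0080 over all genes.

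The calls rest on few libraries. Without mutant replicate 1 none of the 49 was called lower and 3 were called higher, Lamb2 and Lamc1 among them, and without mutant replicate 2 the only call was Lama2, lower; the 4 genes kept a log2 fold change below 0 in both fits and in all 17 alternative fits. With Xist above 10 CPM as a term beside genotype, 0 of the 49 were called.

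**Figure D2:**
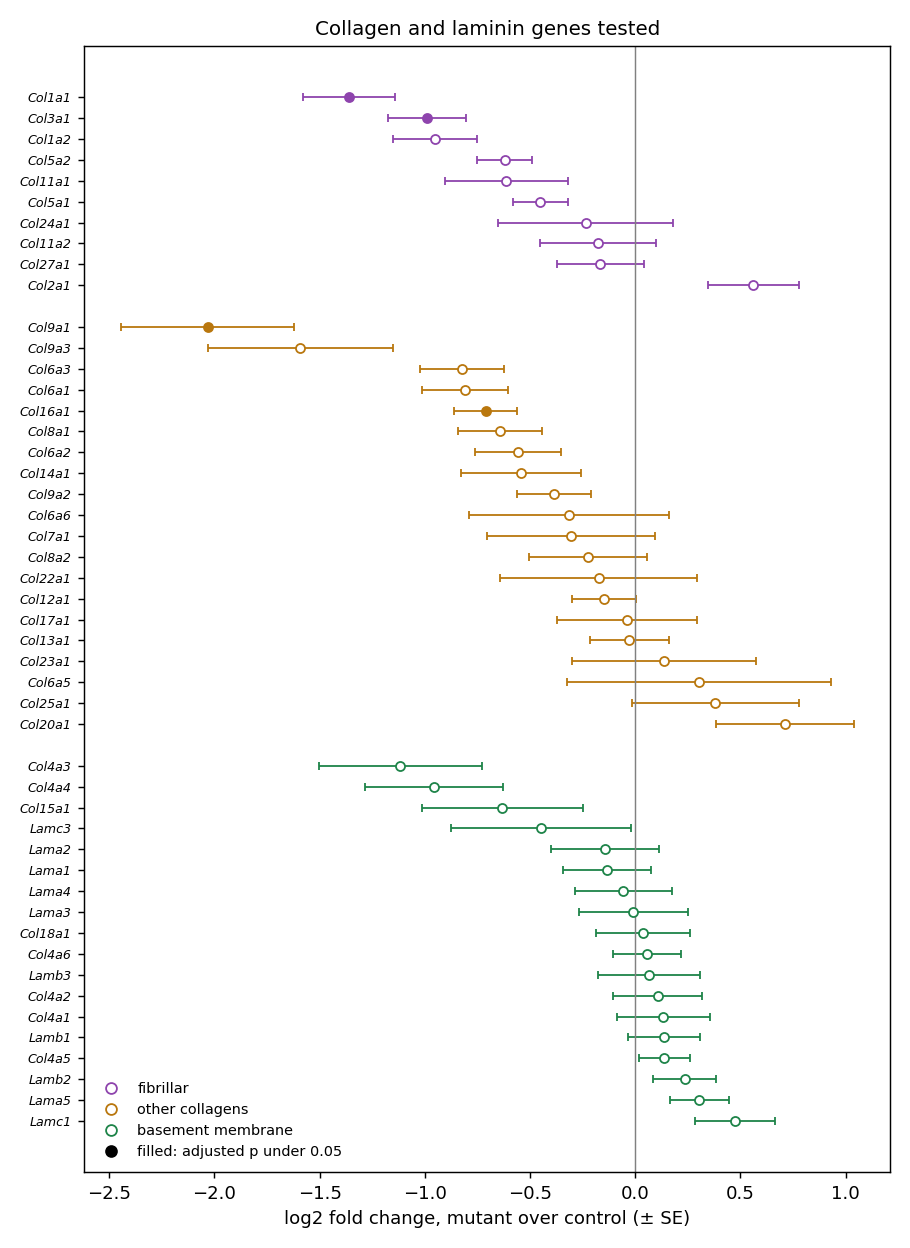
Log2 fold change, mutant over control, with its standard error for 48 of the 49 tested chain genes, grouped by class. Values below 0 are lower in the mutant libraries, and filled points passed the adjusted threshold. Of all 49, 9 of 10 fibrillar chains, 16 of 20 other collagens and 8 of 19 basement membrane chains lie below 0. The share of all genes tested below 0 was 51.4%. The 4 genes past the adjusted threshold are fibrillar or other collagens.

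The 160 bases before the annotated start of Col3a1, Col16a1 and Col9a1 are shown because these genes fell. Capitals mark the letters of 4 motifs, each searched on both strands. The TATA box was searched as TATAAA. The letters searched for the GC box were GGGCGG. The T-box core, bound by factors such as Tbx5, was searched as AGGTGTG. The CCAAT box was searched by the letters of its name. The sequences are from RefSeq for GRCm38.p6, plus strand, 5′ to 3′.
Col3a1, chr1:45311378-45311537: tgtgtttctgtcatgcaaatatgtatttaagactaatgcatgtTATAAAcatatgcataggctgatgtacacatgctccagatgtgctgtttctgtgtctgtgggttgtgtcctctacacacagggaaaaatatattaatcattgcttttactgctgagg
Col16a1, chr4:130047680-130047839: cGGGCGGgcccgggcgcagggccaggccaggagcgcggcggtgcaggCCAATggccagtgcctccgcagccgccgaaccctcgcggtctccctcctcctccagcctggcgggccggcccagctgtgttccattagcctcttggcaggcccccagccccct
Col9a1, chr1:24177450-24177609: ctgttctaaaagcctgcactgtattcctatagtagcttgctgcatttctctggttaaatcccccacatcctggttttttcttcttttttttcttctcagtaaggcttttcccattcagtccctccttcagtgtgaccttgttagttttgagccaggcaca
The Col3a1 window holds the letters of a TATA box, the Col16a1 window those of a GC box and a CCAAT box, and the Col9a1 window none of the 4 motifs. The window of another annotated Col9a1 start, not shown, holds a CCAAT box 18 bases before that start. Promoter windows were found for 40 of the 54 chain genes, Col1a1 not among them. In the 250 bases before the start, the T-box core stood in 1 of 39 windows of tested chain genes (2.56%), that of Col24a1, against 5.1% of 32851 windows of all genes. The GC box stood in 56.4%, against 32.7%, the CCAAT box in 30.8%, against 33.8%, and the TATA box in 10.3%, against 12.4%. Letters of different motifs overlapped in 126 windows. These matches describe the letters in the windows and do not mark binding sites.

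Among the 10 fibrillar chains tested, Col1a1 and Col3a1 fell (20%, against 0.899% of all genes), 0 rose, and 8 did not pass the test. The median log2 fold change of the class was -0.53. Both mutant libraries lay below every control for 5 of the 10, against 10.4% of all genes. These were Col1a1, Col1a2, Col3a1, Col5a1 and Col5a2, the main chains of types I, III and V. The 5 others, Col2a1, Col11a1, Col11a2, Col24a1 and Col27a1, overlapped the controls. Col5a3 was not tested and had at most 0.332 CPM in any library.

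Col1a1 encodes the alpha1 chain of type I collagen, the main collagen of tough connective tissue. Its mm10 (GRCm38) position is chromosome 11, 94936224 to 94953042, plus strand. It had 210 and 244 CPM in the mutant libraries, against 760, 689, 437, 569 and 461 CPM in control replicates 1 to 5. The lowest control, replicate 3, lay well above both mutant libraries. The means were 227 ± 23.7 CPM in mutant (SD, n = 2) and 583 ± 140 CPM in control libraries (SD, n = 5), and the log2 fold change was -1.36 (SE 0.22, adjusted p = 0.0202 by edgeR's quasi-likelihood test). An exact two-sided permutation test of CPM gave p = 0.0476 for Col1a1, the smallest value possible with 2 and 5 libraries. For the other called chain genes this permutation test gave p = 0.0476 for Col3a1 and Col16a1 and 0.0952 for Col9a1. It used the same libraries as the calls and is not independent of them. The adjusted p was 0.0860 without mutant replicate 1, 0.208 without mutant replicate 2 and 0.0732 with the Xist term.

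Col3a1 encodes the single chain of type III collagen, which forms fine fibrils together with type I in pliable tissue. It lies on chromosome 1 at 45311538 to 45349706, plus strand. It had 736 and 707 CPM in the mutant libraries, against 1894, 1435, 1227, 1506 and 1098 CPM in control replicates 1 to 5. The mutant libraries lay close together, and every control was higher. The log2 fold change was -0.99 (SE 0.19, adjusted p = 0.0328 by edgeR's quasi-likelihood test), with an adjusted p of 0.0869 when mutant replicate 1 was left out, 0.292 when mutant replicate 2 was and 0.0770 when control replicate 2 was. Of its exonic length, 141 bases overlap the predicted gene Gm47302 on the same strand.

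Col1a2, the alpha2 chain that joins Col1a1 in type I trimers, had 328 and 346 CPM in the mutant libraries, against 869, 696, 537, 673 and 484 CPM in control replicates 1 to 5. The groups did not overlap, but the log2 fold change of -0.95 (SE 0.20) gave an adjusted p of 0.0512 in edgeR's test, just above the threshold. Col5a2 encodes the alpha2 chain of type V collagen, which starts type I fibrils and sets their width. It had 220 and 252 CPM in the mutant libraries, against 408, 366, 389, 366 and 288 CPM in control replicates 1 to 5, again without overlap. Its log2 fold change was -0.62 (SE 0.13, adjusted p = 0.0524 by edgeR's test). Its partner Col5a1 had 157 and 179 CPM in the mutant libraries, against 263, 230, 187, 250 and 217 CPM in control replicates 1 to 5, a log2 fold change of -0.45 (adjusted p = 0.114 by edgeR's test).

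Col2a1, the fibrillar collagen of cartilage, which cushion cells also make, was the one fibrillar chain with a log2 fold change above 0. It had 32.7 and 47.4 CPM in the mutant libraries, against 23.6, 36.5, 29.1, 19.1 and 27.4 CPM in control replicates 1 to 5, and the ranges overlapped. The log2 fold change was 0.56 (SE 0.22, adjusted p = 0.218 by edgeR's test). Col11a1, whose chain joins type V and type II fibrils, had 10.4 and 16.5 CPM in the mutant libraries, against 21.8, 22.2, 25.2, 22.7 and 11.2 CPM in control replicates 1 to 5. Control replicate 5 lay between the mutant libraries and apart from the other controls. Its log2 fold change was -0.61 (SE 0.29, adjusted p = 0.316 by edgeR's test). Col11a2 was low, at 1.19 and 1.36 CPM in the mutant libraries and 1.14 to 1.78 CPM in the control libraries.

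**Figure D3:**
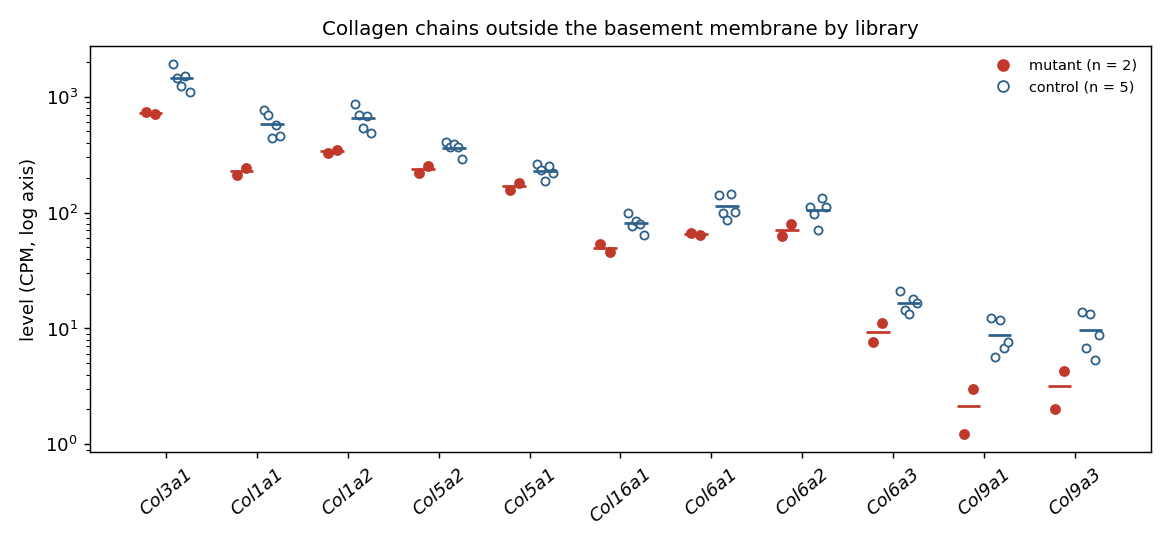
CPM on a log axis of a selection of collagen chains outside the basement membrane in each library. For each gene the mutant libraries (red) are left of the control libraries (blue), with a bar at each group mean. The mutant and control points do not overlap for any gene shown but Col6a2. Chains that overlapped, such as Col14a1, Col9a2, Col13a1 and Col2a1, are not shown. Of all those tested, both mutant libraries lay below every control for 5 of 10 fibrillar chains and 6 of 20 other collagens. The share of all genes tested was 10.4%.

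The order of levels within the family shifted with these differences. Per kilobase of exon, Col3a1 was the most abundant chain gene in both groups, at 130 CPM per kilobase in mutant and 257 CPM per kilobase in control libraries. Col1a1 ranked 8 among the 54 in mutant libraries, at 38.3 CPM per kilobase, and 3 in control libraries, at 98.4. Col4a1 of the basement membrane ranked 2 in mutant libraries, at 96.2 CPM per kilobase, and 4 in control libraries, at 87.7. All 54 chain genes together took 0.4997% of the counts in mutant and 0.643% in control libraries.

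Of the 20 other collagens tested, Col9a1 and Col16a1 fell (10%, against 0.899% of all genes), 0 rose, and 18 did not pass the test. The median log2 fold change was -0.31. Both mutant libraries lay below every control for 6 of the 20, against 10.4% of all genes. They lay above every control for 1, Col20a1, against 9.73% of all genes. The levels of Col20a1 were at most 0.942 CPM.

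Col16a1 encodes a FACIT found near fibrils and basement membranes. It lies on chromosome 4 at 130047840 to 130099283, plus strand. It had 53.2 and 45.7 CPM in the mutant libraries, against 98.7, 76.7, 84.9, 80.1 and 64.2 CPM in control replicates 1 to 5. The lowest control, replicate 5, was above both mutant libraries. The log2 fold change was -0.71 (SE 0.15, adjusted p = 0.0486 by edgeR's quasi-likelihood test), and it passed the threshold in 7 of 17 alternative fits. Of the fits with 1 library left out, it passed only in that without control replicate 5, and its adjusted p was 0.0623 to 0.388 in the others.

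Type IX collagen is a FACIT of type II fibrils, built from the chains of Col9a1, Col9a2 and Col9a3. Col9a1 lies on chromosome 1 at 24177610 to 24252684, plus strand. It was scarce, at 1.24 and 3.02 CPM in the mutant libraries, against 12.2, 5.70, 11.8, 6.73 and 7.61 CPM in control replicates 1 to 5. The groups did not overlap, and its log2 fold change of -2.03 (SE 0.41, adjusted p = 0.0471 by edgeR's quasi-likelihood test) was the lowest of the 49. It passed the threshold in 6 of 17 alternative fits, with a log2 fold change of -1.55 without mutant replicate 1 and -2.82 without mutant replicate 2. Col9a3 had 2.03 and 4.33 CPM in the mutant libraries, against 13.9, 6.79, 13.4, 5.39 and 8.75 CPM in control replicates 1 to 5, a log2 fold change of -1.59 (SE 0.44, adjusted p = 0.108 by edgeR's test). Of its exonic length, 234 bases overlap Tcfl5 on the other strand, and the library kit does not mark strand. Col9a2 was the most abundant of the trio, at 14.1 and 22.7 CPM in the mutant libraries, against 28.5, 23.2, 21.03, 24.3 and 23.6 CPM in control replicates 1 to 5. Its groups overlapped, with a log2 fold change of -0.39 (adjusted p = 0.285 by edgeR's test). Of 6 cartilage markers, 3 were tested and 0 called; the list summed to 25.2 and 31.4 CPM in the mutant libraries, against 32.2 to 66.8 CPM in the control libraries, most of it Hapln1, and Acan had at most 0.693 CPM in any library. The part of these markers in the type IX values was not tested.

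Of 5 chains of type VI collagen, the beaded filament, that were tested, 0 were called by edgeR's test. At an unadjusted p under 0.05, 3 were lower, against 9.52% of all genes. The log2 fold change was below 0 for 4 of the 5, against 51.4% of all genes, and 0.30 for the scarce Col6a5. Col6a1 had 66.7 and 63.8 CPM in the mutant libraries, against 141, 98.4, 85.4, 146 and 100 CPM in control replicates 1 to 5, a log2 fold change of -0.81 (SE 0.20, adjusted p = 0.0869 by edgeR's test). Col6a3 had 7.68 and 11.1 CPM in the mutant libraries, against 21.01, 14.4, 13.4, 17.9 and 16.4 CPM in control replicates 1 to 5, with an adjusted p of 0.0762 in edgeR's test. Neither overlapped between the groups. Col6a2 had 63.1 and 79.3 CPM in the mutant libraries, against 113, 96.7, 70.9, 133 and 111 CPM in control replicates 1 to 5, and did overlap. Col14a1, a FACIT of type I fibrils, had 41.0 and 39.6 CPM in the mutant libraries and 36.8 to 82.4 CPM in the control libraries. Col13a1, a transmembrane collagen of cell adhesions, had 20.1 and 29.1 CPM in the mutant libraries and 18.7 to 30.8 CPM in the control libraries. The 4 tested transmembrane collagens had a median log2 fold change of 0.05, and 0 were called.

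Of the 19 basement membrane chains, 0 were called in either direction by edgeR's test. At an unadjusted p under 0.05, 2 were lower and 2 higher, against 9.52% and 8.09% of all genes. DESeq2 called 1 higher. The median log2 fold change of the 19 was 0.06, with 8 below 0 and 11 above, where 51.4% of all genes were below 0. The most abundant were the chains of the widespread type IV trimer, Col4a1 and Col4a2. Col4a1 had 474 and 799 CPM in the mutant libraries, against 591, 530, 436, 583 and 759 CPM in control replicates 1 to 5. Col4a2 had 298 and 483 CPM in the mutant libraries, against 369, 334, 275, 358 and 474 CPM in control replicates 1 to 5. For both genes mutant replicate 1 lay low in the control range and mutant replicate 2 just above it. The log2 fold changes were 0.13 (SE 0.22, adjusted p = 0.797 by edgeR's test) and 0.11 (adjusted p = 0.833), and both turned below 0 without mutant replicate 2, to -0.28 and -0.27.

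Col4a1 and Col4a2 lie head to head on chromosome 8, and their annotated starts overlap by 22 bases, so both are transcribed outward from one short stretch. That stretch is shown because the ratio of the pair was nearly the same in every library. Capitals mark the overlap of the annotated first exons.
Col4a1 and Col4a2, chr8:11312801-11312830, plus strand: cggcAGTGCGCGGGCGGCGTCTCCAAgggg
The ratio of Col4a1 to Col4a2 was 1.59 and 1.66 in the mutant libraries and 1.58 to 1.63 in the control libraries, a coefficient of variation of 1.08% among controls, although each gene alone varied by 20.3% and 19.99%. Col4a5 and Col4a6, head to head on chromosome X with 1308 bases between them, had 206 and 288 CPM and 37.5 and 57.8 CPM in the mutant libraries, against 209 to 243 CPM and 38.6 to 51.1 CPM in the control libraries. Col4a3 and Col4a4, head to head on chromosome 1, were scarce. Col4a3 had 0.595 and 0.656 CPM in the mutant libraries, against 0.990 to 2.14 CPM in the control libraries, and Col4a4 had 0.892 and 1.23 CPM, against 1.53 to 2.68 CPM. Neither overlapped between the groups, and the adjusted p by edgeR's test was 0.176 for Col4a3 and 0.168 for Col4a4. Among controls the ratio of Col4a5 to Col4a6 varied by 11.7% and that of the scarce Col4a3 to Col4a4 by 35.4%. The part of the shared start in the Col4a1 to Col4a2 ratio was not tested.

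Lamc1 encodes the gamma chain of most laminins and Lamb1 the beta chain of the early ones. Lamc1 had 295 and 526 CPM in the mutant libraries, against 276, 292, 246, 330 and 331 CPM in control replicates 1 to 5, a log2 fold change of 0.47 (SE 0.19, adjusted p = 0.233 by edgeR's test). Mutant replicate 2 stood far above mutant replicate 1, which lay within the control range. Without mutant replicate 1 the log2 fold change of Lamc1 was 0.83 and its adjusted p 0.0382, and without mutant replicate 2 the log2 fold change was 0.0084. Lamb1 had 246 and 388 CPM in the mutant libraries and 245 to 345 CPM in the control libraries.

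The alpha chains set which receptors a laminin binds. Lama4, of vessel basement membranes, had 140 and 250 CPM in the mutant libraries and 162 to 268 CPM in the control libraries. Lama2, of muscle basement membranes, had 23.4 and 56.0 CPM in the mutant libraries, on either side of the 41.9 to 48.7 CPM of the control libraries. Lama5 had 80.7 and 95.9 CPM in the mutant libraries and 56.1 to 85.6 CPM in the control libraries. Col18a1, a multiplexin whose end fragment is endostatin, had 211 and 393 CPM in the mutant libraries and 226 to 355 CPM in the control libraries. None of these passed the test in the fit of all 7 libraries.

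**Figure D4:**
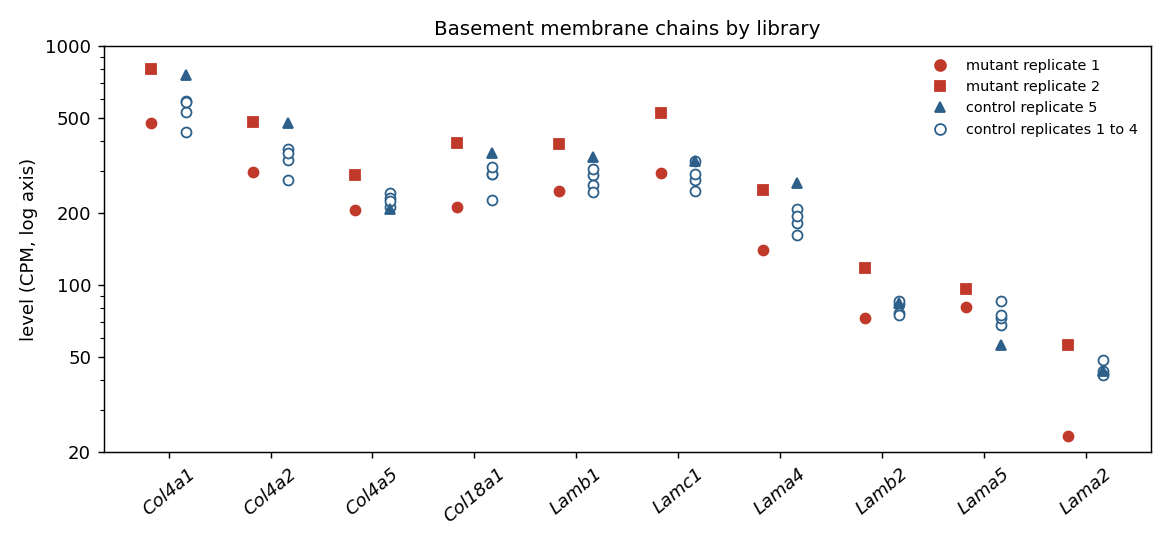
CPM on a log axis of basement membrane chains in each library, with the mutant libraries (red, replicate 1 as a circle and 2 as a square) left of the control libraries (blue, replicate 5 as a triangle). Mutant replicate 2 lies above mutant replicate 1 for every chain shown, and for 16 of all 19. The chains where it lies below are not shown. Control replicate 5 is the highest control for Col4a1, Col4a2, Lama4 and Col18a1 among others.

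The mutant libraries differed from each other in this class, and in the other classes too. Mutant replicate 2 was higher than mutant replicate 1 for 16 of 19 basement membrane chains (84.2%), by a median of 1.54 times, against 50.5% of all genes tested and a median of 1.003. The same order held for 8 of 10 fibrillar chains (80%), by a median of 1.14 times. It held for 15 of 20 other collagens (75%), by a median of 1.37 times. Control replicate 5 was the highest control for 7 of the 19 basement membrane chains (36.8%), against 27.6% of all genes, and for 0 of 10 fibrillar chains. The endothelium and endocardium markers summed to 1014 and 1458 CPM in mutant replicates 1 and 2. Their sum was 1574 CPM in control replicate 5, against 1071 to 1222 CPM in the other controls. Not every marker had this order. Emcn and Cldn5 were lower in mutant replicate 2 than in mutant replicate 1. Control replicate 5 was not the highest control for Emcn, Cldn5 and Egfl7. The part of the endothelium and endocardium markers in the basement membrane values was not tested.

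Ratios were computed for 15 pairs of chains, most of them partners in a trimer or fibril, and not tested. Col1a1 to Col1a2 was 0.641 and 0.704 in the mutant libraries, against 0.814 to 0.990 in the control libraries, so both mutant libraries lay below the control range. Col3a1 to Col1a1 was 3.50 and 2.90 in the mutant libraries, against 2.08 to 2.81 in the control libraries. Col9a2 to Col9a1 was 11.4 and 7.52 in the mutant libraries, against 1.78 to 4.07 in the control libraries. In contrast, Col5a1 to Col5a2 (0.714 and 0.709 in the mutant libraries, 0.481 to 0.755 in the control libraries) and Col6a3 to Col6a1 (0.115 and 0.174 in the mutant libraries, 0.123 to 0.164 in the control libraries) overlapped. Lamb1 to Lamc1 was 0.836 and 0.739 in the mutant libraries, below the 0.893 to 1.05 of the control libraries. Of the remaining pairs, Col9a1 to Col9a3 and Col1a1 to Col4a1 also lay below the control range in both mutant libraries. The ratios with Col9a1 rest on few counts. Col9a1 had 25 and 69 counts in the mutant libraries, and Col9a3 had 41 and 99. Overlap was seen for Col4a1 to Col4a2, Col4a5 to Col4a6, Col4a3 to Col4a4 and Col6a1 to Col6a2. It was also seen for Lamb2 to Lamb1, Lama2 to Lama4 and Col1a2 to Col4a2.

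**Figure D5:**
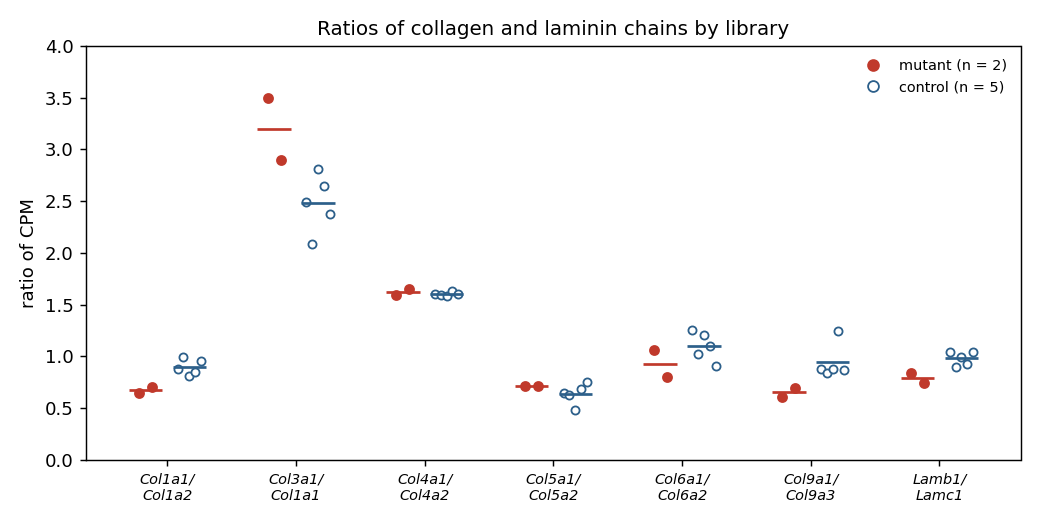
Ratio of CPM between 2 chains in each library, mutant libraries in red left of control libraries in blue. Bars mark group means. The ratio of Col9a1 to Col9a3 rests on few counts in the mutant libraries. Both mutant points lie outside the control range for Col1a1 to Col1a2, Col3a1 to Col1a1, Col9a1 to Col9a3 and Lamb1 to Lamc1, and not for Col4a1 to Col4a2, Col5a1 to Col5a2 and Col6a1 to Col6a2.

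Genes that process, accompany, bind or remodel these proteins were taken from lists of 31, 15, 15 and 14 genes. Of 29 collagen processing genes tested, 0 were called by edgeR's test, and 9 were lower and 1 higher at an unadjusted p under 0.05. Over all genes tested, 9.52% were lower and 8.09% higher at that level, and 0.899% were called lower. The median log2 fold change of the processing list was -0.13. Its most abundant genes were Sparc, a collagen-binding matricellular protein, at 1358 and 1427 CPM in the mutant libraries and 1400 to 1617 CPM in the control libraries, and Serpinh1, the chaperone HSP47, at 992 and 1134 CPM in the mutant libraries and 978 to 1260 CPM in the control libraries. Of 15 basement membrane partners, 2 fell. Egflam, or pikachurin, which binds dystroglycan, had 12.7 and 15.5 CPM in the mutant libraries, against 25.3, 26.0, 24.2, 22.1 and 23.0 CPM in control replicates 1 to 5 (log2 fold change -0.77, adjusted p = 0.0150 by edgeR's test). Smoc2, a secreted calcium-binding matrix protein, had 16.4 and 15.3 CPM in the mutant libraries, against 35.5, 45.2, 36.8, 30.1 and 25.8 CPM in control replicates 1 to 5 (log2 fold change -1.13, adjusted p = 0.0240 by edgeR's test). The groups did not overlap for either gene. Of this list 0 were called lower with either mutant library left out and with the Xist term, and 1 with control replicate 1 left out.

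Of 14 collagen and laminin receptors tested, 0 were called by edgeR's test, with 3 lower and 4 higher at an unadjusted p under 0.05. The shares of all genes tested at that level were 9.52% lower and 8.09% higher. Itgb1, the beta1 subunit of most collagen- and laminin-binding integrins, had 945 and 1008 CPM in the mutant libraries and 870 to 1116 CPM in the control libraries. Bcam, a receptor for laminins with the alpha5 chain, had 356 and 429 CPM in the mutant libraries and 260 to 357 CPM in the control libraries, with overlap. Of 12 remodelling genes tested, 0 were called by edgeR's test, with 8 lower and 1 higher at an unadjusted p under 0.05 and a median log2 fold change of -0.45. Mmp15, a membrane-bound matrix metalloproteinase, had 265 and 357 CPM in the mutant libraries, against 170 to 240 CPM in the control libraries (adjusted p = 0.0540 by edgeR's test). Timp3, an inhibitor of metalloproteinases, had 133 and 129 CPM in the mutant libraries, against 157 to 194 CPM in the control libraries (adjusted p = 0.0752 by edgeR's test).

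Markers of mesenchyme and fibroblasts moved in the same direction as the fibrillar chains. Of 18 listed and tested, 7 fell by edgeR's test (38.9%, against 0.899% of all genes), namely Meox1, Postn, Dpt, Twist1, Lum, Prrx2 and Sox9. The median log2 fold change was -0.76. The number lower was 1 without mutant replicate 2, 2 without mutant replicate 1, where 1 other was higher, 4 with the Xist term or by limma-voom, and 12 by DESeq2. Their summed level was 713 and 1026 CPM in the mutant libraries, against 1089 to 1636 CPM in the control libraries, and every marker was detected. Postn, a matricellular protein of cushion mesenchyme, had 151 and 147 CPM in the mutant libraries, against 633, 394, 416, 391 and 332 CPM in control replicates 1 to 5. Vcan, a proteoglycan of the cushions, went the other way, at 210 and 555 CPM in the mutant libraries and 199 to 280 CPM in the control libraries, and was not called. The part of mesenchymal cells in the collagen values was not tested.

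Of 14 endothelium and endocardium markers 0 were called by edgeR's test, and 2 were lower at an unadjusted p under 0.05. Over all genes tested, 9.52% were lower and 8.09% higher at that level. The shares called were 0.899% lower and 0.463% higher. Of 12 cardiomyocyte markers 1 fell (Myl7) and 1 rose (Mybpc3), and 2 were lower and 6 higher at an unadjusted p under 0.05. Both mutant libraries lay above every control for 5 and below for 2, against 9.73% and 10.4% of all genes. The median log2 fold change was 0.30. The list summed to 39540 and 43525 CPM in the mutant libraries and 34710 to 39513 CPM in the control libraries. Mutant replicate 1 thus lay just above the control range and mutant replicate 2 further above it. Muscle transcripts were abundant in every library, and their part in the collagen values was not tested. No cardiomyocyte marker was called with any of mutant replicate 2, control replicate 1 and control replicate 2 left out or with the Xist term, Myl7 not with mutant replicate 1 left out and Mybpc3 not with control replicate 3 left out, with upper quartile factors or by limma-voom, and DESeq2 called 2 lower and 4 higher. Of 9 epicardium markers 1 fell (Krt19); they summed to 436 and 303 CPM in the mutant libraries, against 403 to 595 CPM in the control libraries. Of 10 macrophage markers 3 fell (C1qa, C1qc and Lyz2), and they summed to 200 and 135 CPM in the mutant libraries, against 206 to 292 CPM in the control libraries. The number of macrophage markers lower was 0 with any of mutant replicate 2, control replicate 1 and control replicate 2 left out and with the Xist term, and 1 with control replicate 3 left out. Krt19 was not called with mutant replicate 2 left out. The part of these cells in the collagen values was not tested. Of 10 smooth muscle and pericyte, 3 glia and 8 erythroid markers tested, 0 were called by edgeR's test. At an unadjusted p under 0.05 there were 4, 1 and 0 in either direction, against 17.6% of all genes.

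The authors' deposited table lists 668 genes as changed, 4.55% of the genes tested here, and holds 11 chain genes (22.4% of those tested), 10 of them lower. Those 10 are Col1a1, Col1a2, Col3a1, Col5a1, Col5a2, Col6a1, Col6a3, Col9a1, Col9a3 and Col16a1. The 4 genes called here are all among them. In the authors' deposited table the log2 fold changes were -1.37 for Col1a1, -0.99 for Col3a1 and -2.04 for Col9a1. Both readings come from the same libraries and are not independent.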

How the data were processed

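Poly(A) RNA of 7 left ventricles (2 mutant, 5 control, groups and replicate numbers from the sample titles) was sequenced as single-end reads from a kit that does not mark strand, per the labels' protocols. The authors deposited whole-number read counts per gene symbol; the submitters' processing notes name limma 3.30.13, edgeR 3.16.5, R 3.3.2, featureCounts, TopHat2 2.1.1 and the build mm10. The annotation and the handling of multiply matching reads are not given in these sources. A second deposited table lists the authors' log2 fold change, p-value and false discovery rate for genes up to a false discovery rate of 0.05; its test is not named.

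The counts went into edgeR 4.0.16 under R 4.3.3: filterByExpr (minimum count 10, minimum total 15), TMM factors, robust glmQLFit and glmQLFTest on genotype alone, and Benjamini-Hochberg adjustment over 14691 genes at a threshold of 0.05. CPM uses TMM-scaled totals, and SE is the log2 fold change over the square root of F. The common biological coefficient of variation was 0.128. Between replicates of a group the chi-square over its degrees of freedom was 9.99 to 31.9, so none duplicated another. On 5 simulated data sets with 200 changed genes the test recovered 60% of genes changed 1.5 times, 94.5% changed 2 times and 99.3% changed 4 times, and 6.55% of calls were false. These rates may not hold for the chain genes. Their median coefficient of variation among controls was 21.3%, against 10.7% for all genes tested. A chain gene that was not called is not thereby shown to be unchanged.

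The members and all gene lists were chosen with earlier results of these data known. Named are the called chain genes, in each class the 6 of highest level per kilobase and the 3 of lowest p, their trimer partners, called genes of the other lists, and the 2 most abundant genes of companion lists with none called; values of marker genes are printed only where a result turns on them; Lama2, Lama4, Lama5, Lamb2 and Col20a1 were named after their values were seen. The values of 1 basement membrane chain taken by this rule are not reported here. Exon lengths came from GENCODE M21 and promoters from RefSeq GRCm38.p6. Alternatives were DESeq2 1.42.0, limma-voom (limma 3.58.1), other scalings and filters, left-out libraries, the replicate block and an Xist term. Figures used matplotlib 3.10.9 under Python 3.11.15.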

Additional observations from a re-analysis of the deposited data

Results flagged for a closer look

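Col11a1 in control replicate 5 lay far from the other controls. It had 11.2 CPM there and 21.8 to 25.2 CPM in control replicates 1 to 4, and its gap to the nearest control made up 0.759 of the control range, above Dixon's critical value of 0.71 for 5 samples. Of 28 groups tested in this way 1 was singled out, where chance gives about 5%. Without control replicate 5 the log2 fold change of Col11a1 was -0.76 and its adjusted p 0.0522 by edgeR's test, against -0.61 and 0.316 with all libraries; without control replicate 5 and mutant replicate 2 together it was -1.14, with an adjusted p of 0.0139.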

How the results depend on the processing

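Over all genes, 200 were called, 786 by DESeq2, 119 by limma-voom, 60 with the Xist term, 52 without control replicate 5 and mutant replicate 2 together, and 12 to 275 with 1 library left out (12 without mutant replicate 2, 78 without control replicate 1, 72 without control replicate 2). Of the chain genes 4 were called lower, 10 by DESeq2, 2 by limma-voom, 0 with the Xist term and 0 to 5 with 1 library left out. The count called higher was 0, against 1 by DESeq2 and 0 to 3 with 1 library left out. Fibrillar chains called lower numbered 2, against 4 with upper quartile factors, 5 by DESeq2, 0 with the Xist term and 0 to 4 with 1 library left out. Other collagens called lower numbered 2, against 5 by DESeq2, 0 by limma-voom, 1 with no filter, 1 without robust estimation, 0 without control replicate 5 and mutant replicate 2 together, 0 with the Xist term and 0 to 1 with 1 library left out. Basement membrane chains called lower numbered 0, against 1 without those libraries together and 0 to 1 with 1 library left out. Companion genes called numbered 2, against 8 by DESeq2, 4 with no filter, 0 with the Xist term and 0 to 8 with 1 library left out. With the replicate number as a block, 811 genes, 10 chain genes lower and 1 higher, 6 fibrillar, 4 other collagens and 15 companion genes were called; deviations of same-numbered libraries correlated at 0.0775 and 0.0117 over 2 shared numbers, so the numbers were not taken to pair the samples.

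Of 459 log2 fold changes of 27 named chain genes under 17 alternatives, 383 kept direction and side of the threshold, 30 lost and 27 gained the call, and 19 changed sign, each of them for a gene that was not called. With 1 library left out the log2 fold change ran from -0.31 to 0.21 for Col13a1, -0.47 to 0.42 for Col18a1, -0.28 to 0.46 for Col4a1, -0.27 to 0.41 for Col4a2, -0.11 to 0.36 for Col4a5, -0.28 to 0.33 for Col4a6 and -0.22 to 0.43 for Lamb1. Without control replicate 5 and mutant replicate 2 together it was -0.40 for Col18a1, -0.16 for Col4a1, -0.16 for Col4a2, -0.14 for Col4a5, -0.26 for Col4a6 and -0.15 for Lamb1. It was 0.064 for Col13a1 with the Xist term, and for Col18a1 -0.019 by limma-voom and -0.014 with the replicate block. The cause of these differences was not tested. Where 1 mutant library is left out, the other is assumed to vary like the controls. Chain genes below about 1 CPM, such as Col6a5 and Col22a1, rest on few counts.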
